A study of Mus musculus with 6 samples.

Results

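Metallothionein and heat shock genes were followed across mouse bone marrow cells sorted for a stem cell phenotype, with or without the leukemia oncogene BCR-ABL. The 8 genes considered were Mt1, Mt2, Hspb1, Hspa1a, Hspa1b, Hsph1, Dnajb1 and Hspa8, chosen by gene symbol. A gene counted as measured where the array annotation gave it a probe set with no other symbol, and the probe set with the highest mean over 6 arrays was used. By this rule 7 of the 8 genes were measured, out of 19938 named genes. Hspa1b was left out, since it is named only on a probe set that also names Hspa1a.

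The 6 arrays came from 3 groups of 2 biological replicates. Donor and recipient mice were both C57BL/6 (B6); donors received fluorouracil, a drug that kills dividing cells, and their marrow was transduced with retrovirus before transplantation. The virus brought in GFP alone for the vector group, BCR-ABL plus GFP for the BCR-ABL group, or BCR-ABL, the Src family kinase Blk and GFP for the BCR-ABL-Blk group. All groups are listed as wild type at 8 weeks of age, and all cells passed through virus infection, transplantation and the same sort. Marrow was collected 14 days after transplantation, and GFP+ cells with the LSK phenotype (no lineage markers, c-Kit and Sca-1 both present) were sorted. The labels name the sorted vector cells hematopoietic stem cells (HSCs) and the others leukemic stem cells (LSCs). How many mice made up a replicate is not given, so p-values measure the spread between these samples.

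Metallothioneins are small cysteine-rich proteins that bind zinc, copper and cadmium. Their genes are switched on by the zinc-sensing factor MTF1, through short metal response elements, and by glucocorticoids. Heat shock proteins are chaperones that keep other proteins folded; heat shock factor 1 (HSF1) induces many of them under stress, through heat shock elements made of inverted GAA repeats, while others are made at all times. The BCR-ABL protein is itself known to depend on the chaperone HSP90.

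Levels below are quantile normalized log2 values, so a difference of 1 is a factor of 2 in measured signal. Before that step the array medians ran from 7.01 to 7.52 and differed within groups. Standard errors (SE), 95% intervals and p-values come from a limma fit over all named genes and all 6 arrays, with p adjusted by Benjamini-Hochberg over 19938 genes and called below 0.05. Signal over background was not measured, so folds are those of the signal. The number of arrays limits the precision: the median SE of a difference was 0.129 over all genes. The mean level of stem cell markers, of which 9 of 11 were measured, lay between 9.13 and 9.84 on the 6 arrays. With BCR-ABL 7 of these 9 were higher without overlap, beside 22.1% of all genes, and 2 were lower without overlap, beside 14.9%. The median was 0.33, and 6 had an unadjusted p under 0.05, beside 8.64% of all genes. The transcription factor Meis1 was called between BCR-ABL-Blk and vector cells (1.08, adjusted p = 0.0490). Kit, one of the sorting markers, read −0.39 with BCR-ABL (adjusted p = 0.533), and Ly6a, which encodes Sca-1, had no probe set of its own.

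Mt1 and Mt2 were lowest in BCR-ABL-Blk cells, intermediate in BCR-ABL cells and highest in vector cells. Hspb1 was lowest in vector cells and highest in BCR-ABL cells. Hspa1a differed more between replicates than between groups, and Hsph1, Dnajb1 and Hspa8 stayed within narrow ranges. None of the 7 genes passed the test over all genes in any comparison. Between BCR-ABL and vector cells, 0 of 7 were called where 0.145% of all genes were, and 3 of 7 had an unadjusted p under 0.05 where 8.64% of all genes did. Between BCR-ABL-Blk and BCR-ABL cells, 0 of 7 were called, as were 0% of all genes, and 3 had an unadjusted p under 0.05 against 3.96% of all genes. Between BCR-ABL-Blk and vector cells, 0 of 7 were called against 0.140% of all genes, and 3 had an unadjusted p under 0.05 against 9.42%. In each comparison those 3 genes were Mt1, Mt2 and Hspb1. The comparisons share arrays, so they are not independent of each other.

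**Figure D1:**
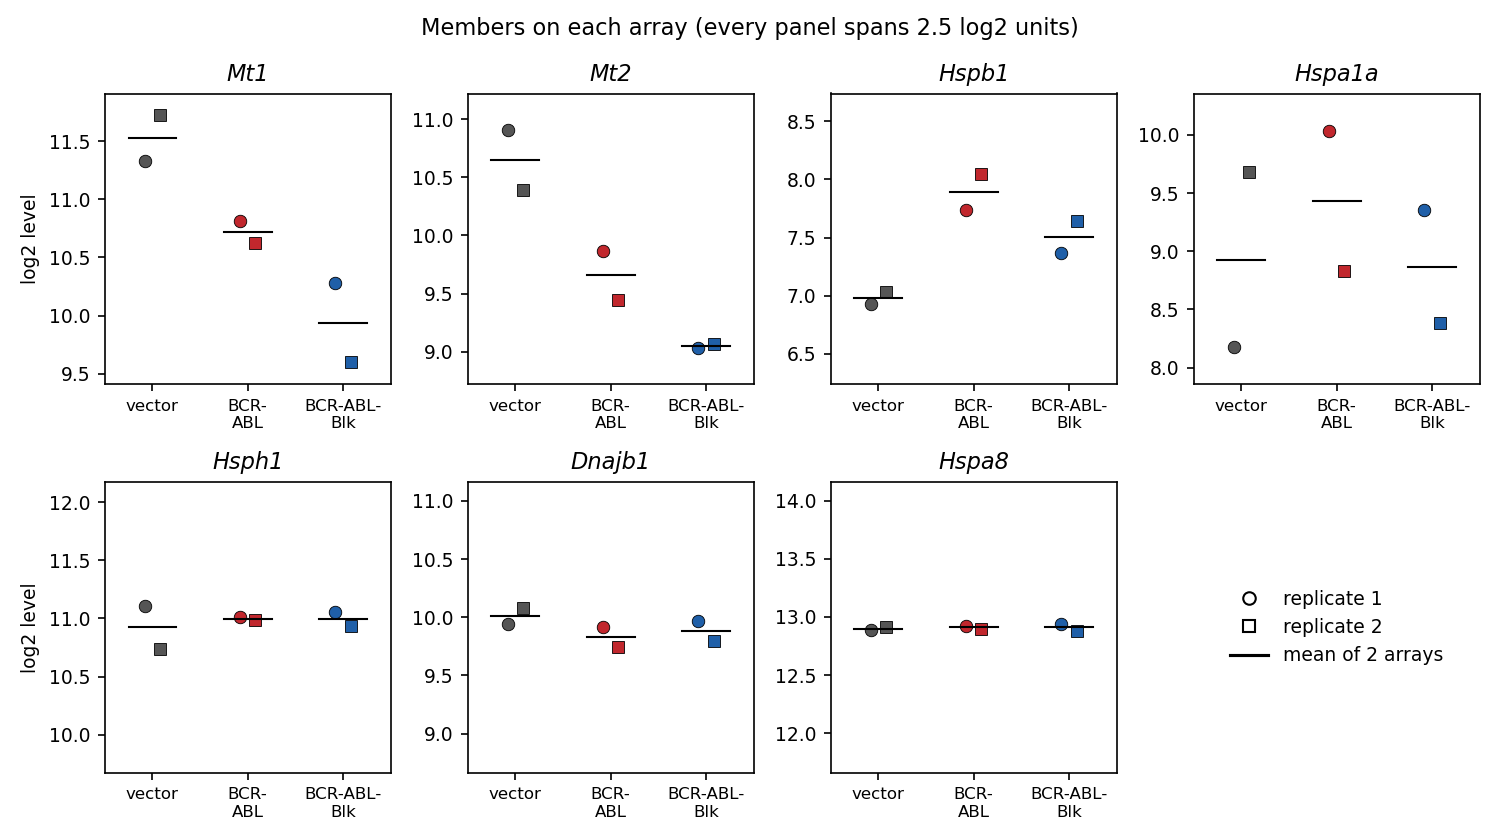
Normalized log2 level (vertical axis) of the 7 measured genes in vector, BCR-ABL and BCR-ABL-Blk cells (horizontal axis); circles are replicate 1, squares replicate 2 and lines the mean of 2 arrays, and every panel spans the same number of log2 units. Mt1 and Mt2 step down from vector to BCR-ABL to BCR-ABL-Blk, Hspb1 is lowest in vector cells, and Hspa1a replicates lie far apart in every group.

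Mt1 and Mt2, the metallothionein genes expressed in most tissues, are neighbours on chromosome 8. The stretch before Mt2 is shown because the pair had the same order of group means and metal response elements control both genes. It is the 250 bases before the annotated start, from RefSeq on GRCm38.p6, at chr8:94172368-94172617 on the plus strand. Capitals mark the core of the metal response element, searched on both strands as TGCACNC or TGCGCNC; no heat shock match overlaps them.
Mt2: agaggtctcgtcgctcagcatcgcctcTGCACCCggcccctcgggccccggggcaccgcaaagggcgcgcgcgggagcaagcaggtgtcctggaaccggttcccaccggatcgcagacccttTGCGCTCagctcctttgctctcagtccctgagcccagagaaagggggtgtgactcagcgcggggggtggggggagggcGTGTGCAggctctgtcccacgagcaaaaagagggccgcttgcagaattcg
The window that the table gives for Mt1 begins ahead of, and ends inside, the annotated span of the gene, so it is described by its matches alone.
In the whole promoter window of 300 bases, which adds 50 bases after the start used by the table, Mt1 held 3 such cores and Mt2 held 4. Counted from the start, those of Mt1 lay at bases −23 to −17, 3 to 9 and 21 to 27. Those of Mt2 lay at −223 to −217, −128 to −122, −50 to −44 and 5 to 11, the last 2 on the minus strand. At least 3 cores were present in 1.97% of 32851 promoter windows and at least 4 in 0.517%. A match describes the letters and is not a bound site.

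Mt1 read 11.33 and 11.72 (vector), 10.81 and 10.62 (BCR-ABL), and 10.28 and 9.60 (BCR-ABL-Blk). The groups did not overlap in any of the 3 comparisons. The Mt1 mean was 11.52 ± 0.28 for vector, 10.72 ± 0.13 for BCR-ABL and 9.94 ± 0.48 for BCR-ABL-Blk (SD, n = 2 each). Relative to vector, Mt1 was 1.75-fold lower in BCR-ABL cells (log2 difference −0.81, SE 0.23, 95% interval −1.34 to −0.27, adjusted p = 0.328 by limma). With added Blk it was a further 1.72-fold lower than in BCR-ABL cells (−0.78, interval −1.31 to −0.25, adjusted p = 0.999). Mt1 in BCR-ABL-Blk cells was thus 3.01-fold below vector (−1.59, interval −2.12 to −1.06, adjusted p = 0.0645), which ranked 51 of all genes by p.

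Mt2 read 10.90 and 10.39 (vector), 9.87 and 9.45 (BCR-ABL), and 9.04 and 9.07 (BCR-ABL-Blk). Again every array of a group lay clear of the other groups, and the BCR-ABL-Blk arrays were nearly equal. Mt2 means were 10.65 ± 0.36, 9.66 ± 0.30 and 9.05 ± 0.02 in that order (SD, n = 2 each). BCR-ABL cells lay 1.99-fold below vector cells (−0.99, SE 0.21, interval −1.48 to −0.50, adjusted p = 0.169). BCR-ABL-Blk cells lay 1.52-fold below BCR-ABL cells (−0.61, interval −1.09 to −0.12, adjusted p = 0.999) and 3.02-fold below vector cells (−1.60, interval −2.08 to −1.11, adjusted p = 0.0517, rank 34 by p). The last value missed the threshold narrowly.

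Both genes stayed lower with either vector array left out. Without vector replicate 1, Mt1 was at −1.79 and Mt2 at −1.34 between BCR-ABL-Blk and vector cells. Without vector replicate 2 they were at −1.39 and −1.85, and Mt2 was at −1.25 between BCR-ABL and vector cells. Such a fit takes the spread of the single vector array to equal that of the remaining groups. Many more genes were called over all genes in these fits, so no call is read from them. Both genes stayed lower under each of 14 alternatives in all 3 comparisons. Over these the adjusted p between BCR-ABL-Blk and vector cells reached 0.182 for Mt1 and 0.236 for Mt2. That of Mt2 between BCR-ABL and vector cells reached 0.780. The smallest values came without normalization between arrays. Many more genes were called over all genes in that setting too, so no call is read from it either.

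The other metallothionein genes, Mt3, known from brain, and Mt4, known from stratified epithelium, showed no such order. Mt3 lay between 7.81 and 7.99 on all arrays and differed by 0.04 between BCR-ABL and vector cells (adjusted p = 0.968). Mt4 lay between 6.38 and 6.58. Whether these readings are above background was not measured.

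By likeness of pattern, taken as the root mean square difference over the 6 arrays after removing each gene's own mean, Mt2 ranked 40 among all other genes from Mt1, at 0.35, and Mt1 ranked 38 from Mt2. The nearest genes to Mt1 were Ppm1k (0.15), Stom (0.18) and Sqor (0.20), against a median of 0.70 over genes. The nearest to Mt2 were Ermap (0.22), an erythroid membrane protein gene, Prg3 (0.24), an eosinophil granule protein gene, and Klrb1b (0.25), a receptor gene of natural killer cells. These are descriptions over 6 arrays. Within groups Mt1 and Mt2 did not always move together. Replicate 1 minus replicate 2 was −0.39 for Mt1 and 0.51 for Mt2 in vector cells. It was 0.19 and 0.42 in BCR-ABL cells, and 0.68 and −0.035 in BCR-ABL-Blk cells.

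Lineage marker lists differed between groups in both directions. Several lists, the erythroid, neutrophil and monocyte ones among them, had the order of the metallothioneins by group mean. The erythroid list includes Ermap, the gene nearest to Mt2 above, so the list and that likeness share a gene. All lists were written with earlier results known. The mean of 6 measured erythroid markers (of 9 listed) was 9.64 to 9.91 (vector), 9.30 to 9.35 (BCR-ABL) and 8.77 to 9.13 (BCR-ABL-Blk), which is the same order without overlap. Of these, 5 of 6 lay below 0 between BCR-ABL and vector cells (median −0.40) and all 6 between BCR-ABL-Blk and BCR-ABL cells (median −0.37; 4 of 6 without normalization between arrays). The mean of 8 monocyte and macrophage markers (of 10) was 9.45 to 9.56 (vector), 8.38 to 8.76 (BCR-ABL) and 8.38 to 8.41 (BCR-ABL-Blk). All 8 lay below 0 between BCR-ABL and vector cells (median −0.82), but with added Blk 3 lay above and 5 below (median −0.10). The latter median was 0.16 without normalization between arrays, below that of all genes in that setting. It was 0.085 when BCR-ABL replicate 2 was dropped. For 10 neutrophil markers the ranges were 10.13 to 10.83, 9.87 to 10.23 and 9.61 to 9.81. All 10 lay below 0 in each comparison. With added Blk only 5 of 10 did without normalization between arrays, and with BCR-ABL 7 of 10 did with each array centred. Without normalization the median of all genes with added Blk was itself above 0. The erythroid and neutrophil medians were then −0.165 and −0.10. All 8 dendritic cell markers lay below 0 with BCR-ABL (median −1.10), where the MHC class II gene H2-Ab1 was called (−1.38, adjusted p = 0.0206). With added Blk their median was 0.18. Flt3 is on both this list and the stem cell marker list. Other lists were higher by value: all 7 megakaryocyte markers lay above 0 with BCR-ABL (median 0.55, with 1 of 7 below 0 without normalization between arrays), as did 6 of 9 mast cell, basophil and eosinophil markers (median 0.91), where Gzmb was called (3.25, adjusted p = 0.0187). With added Blk the median of the latter list was −0.39, and it turned to 0.16 when BCR-ABL-Blk replicate 2 was dropped. B cell markers (9 genes) had a mean of 10.08 and 8.57 on the vector arrays and between 7.25 and 7.90 on the other 4. Among 8 T and NK cell markers 3 lay above and 5 below 0 with BCR-ABL (median −0.10). Of these 1 was called lower, beside 0.145% of all genes called. Between BCR-ABL-Blk and vector cells 1 gene each of the T and NK, monocyte and dendritic lists was called lower. In that comparison 1 gene of the mast cell list was called higher, and 0.140% of all genes were called. The part of these cell types in the metallothionein values was not tested, and in sorted bulk cells fewer cells of a type and less RNA per cell cannot be told apart. Arrays give no true zero, so absence of a marker could not be read.

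**Figure D2:**
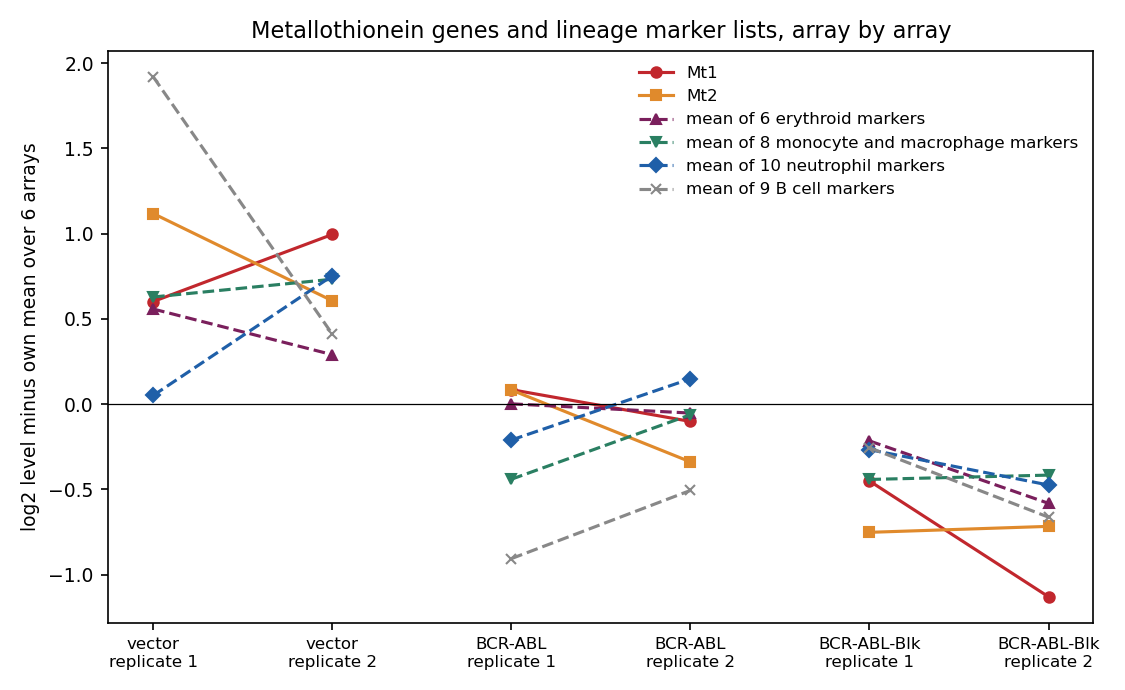
Log2 level on each array minus the item's own mean over 6 arrays (vertical axis) for Mt1, Mt2 and the mean of 4 marker lists; arrays are on the horizontal axis and lines join the 2 replicates of a group. Mt1, Mt2 and all 4 lists run from above 0 in vector to below 0 in BCR-ABL-Blk cells. The monocyte and B cell lists drop from vector to both BCR-ABL groups, and the vector replicates disagree on the B cell list.

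Zinc handling genes were read for comparison. Mtf1, the factor that activates metallothionein genes, read 9.40 and 10.10 on the vector arrays and 9.22 to 9.36 on the other 4 arrays. Its difference was −0.48 with BCR-ABL (adjusted p = 0.608) and 0.02 with added Blk (adjusted p = 0.999). Vector replicate 2 stood above the other arrays. Of 20 zinc handling genes, 0 passed in any comparison. Between BCR-ABL and vector cells 2 had an unadjusted p under 0.05, and the list median was 0.01, beside 0.02 over all genes. The zinc importer Slc39a10 (0.70, adjusted p = 0.475) and the exporter Slc30a4 (0.74, adjusted p = 0.502) had the smallest p. Slc39a4 (0.26) followed. The vector arrays of Slc39a10 stood apart, at 10.31 and 9.55, beside 10.70 and 10.56 in BCR-ABL cells. Those of Slc30a4 did too, at 8.09 and 7.175, beside 8.225 and 8.52. Vector replicate 2 was the lower array for both of these genes. Dropping vector replicate 1 turned the list median to −0.086. It rose to 0.1175 on dropping vector replicate 2. With added Blk 14 of 20 lay below 0 (median −0.15), with 1 at an unadjusted p under 0.05; without normalization between arrays 16 lay above 0, at a median of 0.11, where the median of all genes was 0.255. Slc30a1, the zinc exporter that MTF1 also activates, was picked after its values were seen. It was lower in BCR-ABL-Blk than in vector cells by value, at −0.42 (adjusted p = 0.349). Its values in the other comparisons are not given here, so its order of groups cannot be set beside that of Mt1 and Mt2.

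Glucocorticoid response genes, read because these hormones also induce metallothioneins, did not pass either: 0 of 9 in each comparison. With BCR-ABL 6 of 9 lay above 0 (median 0.27, or 0.135 without normalization between arrays), and 3 had an unadjusted p under 0.05, beside 8.64% of all genes. With added Blk 7 of 9 lay below 0 (median −0.20), of which 6 were lower without overlap, beside 20.0% of all genes. That median was 0.085 without normalization between arrays, which is below the median of all genes in that setting. Tsc22d3, which encodes the glucocorticoid-induced protein GILZ, was at 0.43 (adjusted p = 0.372), the zinc finger factor Klf9 at 0.32 (adjusted p = 0.562) and the kinase Sgk1 at −0.47 (adjusted p = 0.227). In BCR-ABL-Blk against vector cells Sgk1 was at −0.64 (adjusted p = 0.0973).

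Hspb1 encodes HSP27 (HSP25 in mice), a small chaperone that holds unfolded proteins and binds actin. Its promoter is shown because Hspb1 had the smallest p of the chaperone genes with BCR-ABL. The sequence is the 250 bases before the start, RefSeq on GRCm38.p6, chr5:135887669-135887918, plus strand. The promoter of Hspa1a at chr17:34972157-34972406, minus strand, stands beside it, since both genes are classical HSF1 targets. Capitals mark pairs of inverted repeats of the heat shock element, searched as GAANNTTC or TTCNNGAA; each reads the same on both strands and was counted once.
Hspb1: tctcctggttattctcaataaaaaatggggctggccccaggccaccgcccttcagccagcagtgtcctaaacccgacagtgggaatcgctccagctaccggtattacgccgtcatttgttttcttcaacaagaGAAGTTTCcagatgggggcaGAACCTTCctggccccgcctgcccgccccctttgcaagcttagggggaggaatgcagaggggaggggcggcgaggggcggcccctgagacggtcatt
Hspa1a: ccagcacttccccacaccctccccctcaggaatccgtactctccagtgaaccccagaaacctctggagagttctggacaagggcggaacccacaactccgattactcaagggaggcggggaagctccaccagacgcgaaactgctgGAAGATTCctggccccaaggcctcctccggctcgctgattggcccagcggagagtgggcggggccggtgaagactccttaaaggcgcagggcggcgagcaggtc
Hspb1 held 2 such pairs, at bases −117 to −110 and −97 to −90, and Hspa1a held 1, at −104 to −97. Both windows of Hsph1 held 3, of which 2 overlap by their shared GAA, and neither window of Dnajb1 held any. At least 1 pair was present in 15.1% of the 32851 windows, at least 2 in 1.96% and at least 3 in 0.256%. No metal response core was found in the windows of Hspb1, Hspa1a, Hspa1b or Hsph1, and 1 of the 2 Dnajb1 windows held 1. The promoters of Hspa1a and Hspa1b differed at 3 of 250 bases. The promoter table held 7 of the 8 genes.

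Hspb1 read 6.93 and 7.03 (vector), 7.74 and 8.05 (BCR-ABL), and 7.37 and 7.64 (BCR-ABL-Blk). Both vector arrays were lowest, the BCR-ABL-Blk arrays lay between, and no groups overlapped. Its mean rank order was therefore vector, BCR-ABL-Blk, BCR-ABL, with means of 6.98 ± 0.07, 7.51 ± 0.19 and 7.89 ± 0.22 (SD, n = 2 each). Compared with vector, BCR-ABL cells lay 1.88-fold higher (log2 difference 0.91, SE 0.15, interval 0.55 to 1.27, adjusted p = 0.0923), which ranked 95 of all genes by p. Added Blk went with a 1.31-fold lower value than in BCR-ABL cells (−0.39, interval −0.75 to −0.03, adjusted p = 0.999). Against vector, BCR-ABL-Blk cells remained 1.44-fold higher by value (0.52, interval 0.17 to 0.88, adjusted p = 0.314).

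A further probe set names Hspb1 alone, and its values were close. It gave 6.90 and 6.88 (vector), 7.59 and 7.99 (BCR-ABL), and 7.20 and 7.47 (BCR-ABL-Blk). The differences from it were 0.90, −0.45 and 0.45 in the same order of comparisons. The annotation lists identical transcripts for both probe sets, so they are not replicates. Which genomic site each one matches could not be told from the files. Under 14 alternatives Hspb1 kept its direction in all 3 comparisons and was called in none, with the adjusted p between BCR-ABL and vector cells running from 0.0621 to 0.548. The genes with the nearest pattern were Bckdhb (0.09), a mitochondrial enzyme subunit of branched-chain amino acid breakdown, Ier3 (0.10), an immediate-early gene, and Slc7a8 (0.10), an amino acid transporter, against a median of 0.40 over genes.

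Among the other small heat shock genes only Hspb11 had this order of groups without overlap. Of 10 measured, 0 passed in any comparison, and with BCR-ABL 7 lay above 0 and 3 below, with a median of 0.05. Hspb11, a ciliary transport protein despite its name, was at 0.78 (adjusted p = 0.533), but its vector arrays stood apart at 9.67 and 8.59. With added Blk its difference was −0.17 (adjusted p = 0.999), and between BCR-ABL-Blk and vector cells it was 0.615 (adjusted p = 0.605). Cryab, the alpha-B crystallin chaperone gene, was at −0.29 (adjusted p = 0.656), Hspb6 at 0.02 and Hspb8 at −0.0008. Without normalization between arrays the list median was −0.09, where that of all genes was −0.11.

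**Figure D3:**
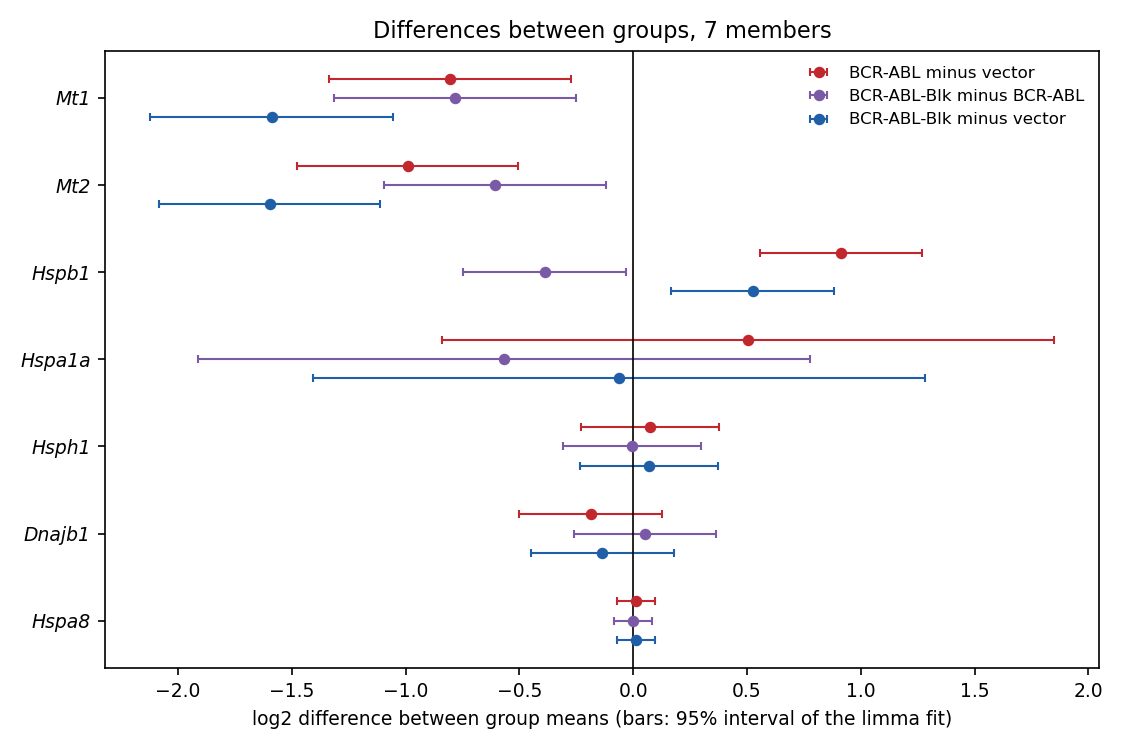
Log2 difference between group means (horizontal axis) for the 7 measured genes (vertical axis) in 3 comparisons; points are estimates and bars 95% intervals of the limma fit, not adjusted for the number of genes. Intervals of Mt1, Mt2 and Hspb1 lie clear of 0 in all comparisons, those of Hspa1a are widest and those of Hspa8 narrowest.

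Hspa1a encodes the stress-inducible HSP70, usually low at rest and strongly induced by heat and other stress. It read 8.18 and 9.68 (vector), 10.04 and 8.83 (BCR-ABL), and 9.35 and 8.38 (BCR-ABL-Blk). Each group had a high and a low array, and all groups overlapped. Replicates differed by 1.50 for vector, 1.21 for BCR-ABL and 0.97 for BCR-ABL-Blk, where the median gene differed by 0.145, 0.118 and 0.120. By size these gaps stood at percentiles 99.6, 99.9 and 99.4 of all genes, in the same order of groups. The group difference was 0.50 between BCR-ABL and vector cells (SE 0.57, interval −0.84 to 1.85, adjusted p = 0.870), −0.57 between BCR-ABL-Blk and BCR-ABL cells (adjusted p = 0.999) and −0.06 between BCR-ABL-Blk and vector cells (adjusted p = 0.988). The sign turned when single arrays were left out: the difference with BCR-ABL was −0.25 with vector replicate 1 omitted and −0.10 with BCR-ABL replicate 1 omitted.

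The nearest pattern to Hspa1a among named genes was that of Fos (0.24), an immediate-early transcription factor, followed by Zfp949 (0.35) and Calml4 (0.37), against a median of 0.68. Fos read 7.06 and 7.94 (vector), 8.33 and 7.28 (BCR-ABL), and 7.68 and 7.14 (BCR-ABL-Blk). In each group the array with more Hspa1a signal also had more Fos signal. The mean of 13 immediate-early genes had the same order within groups, at 7.84 and 8.41, 8.46 and 8.07, and 8.27 and 8.16. That mean includes Fos, and the arrays share their RNA and normalization. What sets these arrays apart was not tested.

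The probe set that names Hspa1a and Hspa1b together read 8.26 and 9.08 (vector), 8.95 and 8.31 (BCR-ABL), and 8.53 and 8.66 (BCR-ABL-Blk). It followed Hspa1a within the vector and BCR-ABL groups but not within BCR-ABL-Blk. The group differences on it were −0.04, −0.03 and −0.07. The genes encode nearly the same protein, so how the signal divides between them is uncertain.

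**Figure D4:**
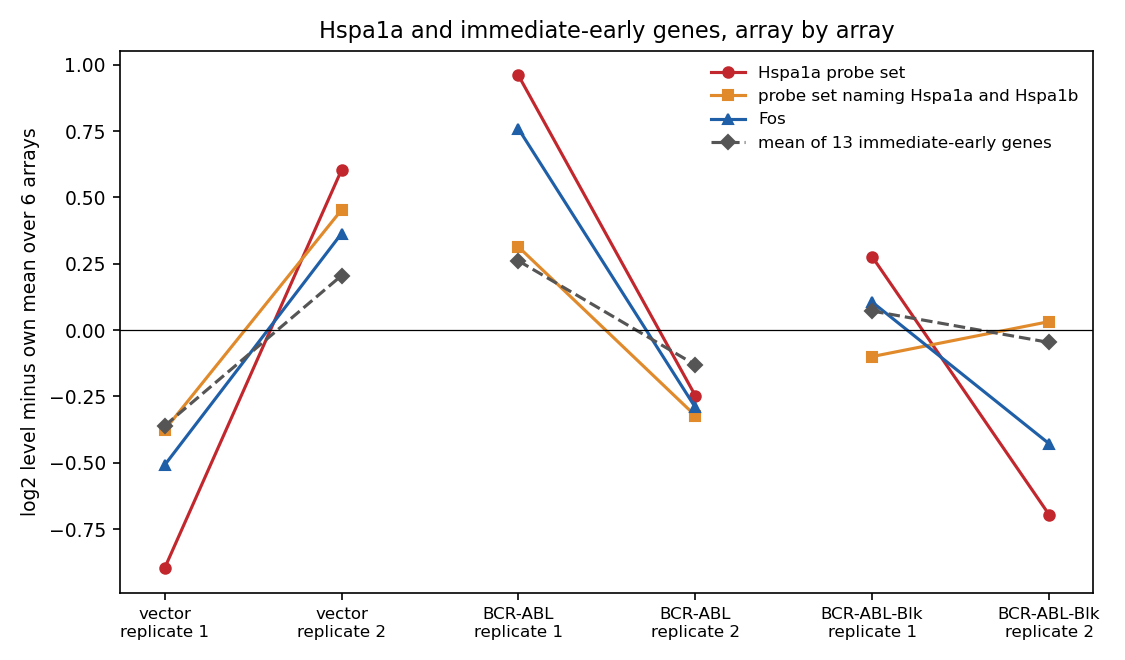
Log2 level on each array minus the item's own mean over 6 arrays (vertical axis) for the Hspa1a probe set, the probe set naming Hspa1a and Hspa1b, Fos, and the mean of 13 immediate-early genes; arrays are on the horizontal axis and lines join the 2 replicates of a group. Vector replicate 2, BCR-ABL replicate 1 and BCR-ABL-Blk replicate 1 are the higher arrays for Hspa1a, Fos and the immediate-early mean.

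Hsph1, an HSP110 chaperone that helps HSP70 release nucleotide, read 11.11 and 10.74 (vector), 11.01 and 10.99 (BCR-ABL), and 11.06 and 10.93 (BCR-ABL-Blk). The vector arrays bracketed all others. Its differences were 0.08 with BCR-ABL (interval −0.23 to 0.38, adjusted p = 0.924), −0.005 with added Blk (interval −0.31 to 0.30, adjusted p = 0.999) and 0.07 between BCR-ABL-Blk and vector cells (adjusted p = 0.929).

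Dnajb1, the HSP40 cochaperone that stimulates HSP70, read 9.94 and 10.08 (vector), 9.91 and 9.74 (BCR-ABL), and 9.96 and 9.80 (BCR-ABL-Blk). The vector arrays lay just above the BCR-ABL arrays and overlapped those of BCR-ABL-Blk. The differences were −0.19 with BCR-ABL (interval −0.50 to 0.13, adjusted p = 0.766), 0.05 with added Blk (interval −0.26 to 0.36, adjusted p = 0.999) and −0.14 between BCR-ABL-Blk and vector cells (adjusted p = 0.843). Counting this gene, 4 of 7 genes did not overlap between BCR-ABL and vector cells (1 higher, 3 lower), where 37.0% of all genes did not (22.1% higher, 14.9% lower). Between BCR-ABL-Blk and BCR-ABL cells it was 3 of 7, all lower, against 34.0% of all genes in either direction, 14.0% higher and 20.0% lower. Between BCR-ABL-Blk and vector cells it was also 3 of 7 (1 higher, 2 lower), against 37.2% of all genes (19.7% higher, 17.5% lower).

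Hspa8 encodes HSC70, the constitutive member of the HSP70 family. It read 12.88 and 12.91 (vector), 12.92 and 12.90 (BCR-ABL), and 12.94 and 12.88 (BCR-ABL-Blk). All 6 arrays lay within 0.06. The intervals of its differences ran from −0.07 to 0.10 with BCR-ABL, from −0.08 to 0.08 with added Blk and from −0.07 to 0.10 between BCR-ABL-Blk and vector cells (adjusted p = 0.965, 0.999 and 0.967). Another 2 probe sets that name Hspa8 alone differed between BCR-ABL and vector cells by −0.004 and −0.04. Their listed transcripts overlap those of the probe set used, and the site each matches could not be told either. A further 2 probe sets name Hspa8 together with Snord14c and Snord14d. They differed by −0.40 and −0.42 with BCR-ABL and by −0.43 and −0.44 between BCR-ABL-Blk and vector cells. On the first of these the vector arrays stood apart, at 10.39 and 11.64. Whether the bright probe sets that name Hspa8 alone were near saturation was not measured.

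The wider chaperone network was read from lists of related genes. Over 12 lists of metal and stress genes, 136 distinct genes were measured, and 0 passed the limma test in any comparison. With BCR-ABL 15 of 136 (11.0%) had an unadjusted p under 0.05, beside 8.64% of all genes; with added Blk it was 9 of 136 (6.62%), beside 3.96%, and between BCR-ABL-Blk and vector cells 15 of 136, beside 9.42%. The members are among these genes. The median difference of the 136 genes was 0.03 with BCR-ABL and −0.04 with added Blk, close to the median of all genes at 0.02 and −0.01.

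Among 14 measured HSP70 and HSP110 genes the median with BCR-ABL was 0.07, or 0.185 after arrays were centred on their medians. Hspa1l, an HSP70 gene known mainly from testis, read 7.61 and 7.79 (vector), 7.93 and 8.41 (BCR-ABL), and 8.53 and 8.79 (BCR-ABL-Blk). It thus stepped up in value where Mt1 and Mt2 stepped down, with a difference of 0.96 between BCR-ABL-Blk and vector cells (SE 0.19, adjusted p = 0.134) and 0.47 between BCR-ABL and vector cells (adjusted p = 0.563). Hspa5, the endoplasmic reticulum chaperone BiP, was at −0.13 with BCR-ABL (adjusted p = 0.562), and its partner Hyou1 was at −0.26 (adjusted p = 0.718).

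HSP90 genes and cochaperones had a median of −0.003 with BCR-ABL over 12 measured genes, with 0 at an unadjusted p under 0.05. With each array centred on its median, that value was 0.14 and all 12 lay above 0. Hsp90aa1, the inducible HSP90 gene, lay between 12.86 and 12.91 on all arrays. The HSP90 activator Ahsa1 was at 0.10 (adjusted p = 0.631), the immunophilin Fkbp5 at 0.30 (adjusted p = 0.647) and Fkbp4 at 0.09 (adjusted p = 0.781). In BCR-ABL-Blk against vector cells, 3 of the 12 had an unadjusted p under 0.05, namely Fkbp4 (0.23), Ahsa1 (0.15) and Fkbp5 (0.39), with adjusted p from 0.341 to 0.479.

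The 16 J-domain genes had a median of −0.03 with BCR-ABL, which turned to 0.095 with 11 of 16 above 0 after centring. They were led by Dnajc5 (−0.22, adjusted p = 0.653), Dnajb5 (−0.19) and Dnaja1 (0.08). The 12 nucleotide exchange and partner genes had a median of 0.02, or 0.1075 after centring. Without normalization between arrays it was −0.0375, above the median of all genes in that setting. Leading genes were the HSP70 regulator Bag5 (0.30, adjusted p = 0.622) and the mitochondrial exchange factor Grpel1 (0.44, adjusted p = 0.636). Bag1 (0.07) followed. Of 10 chaperonin genes 9 lay above 0, by a median of 0.05 (0.1975 after centring), with Cct8 (0.12), Cct4 (0.15) and Cct7 (0.13) leading at adjusted p of 0.630 to 0.781. The heat shock factor Hsf2 was at 0.19 (adjusted p = 0.753), Hsf4 at 0.16 and Hsf2bp, a partner of HSF2, at 0.32 (adjusted p = 0.338). In none of these lists did a gene pass.

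Oxidative stress genes, targets of the factor Nrf2, split with BCR-ABL into 5 above and 7 below 0 (median −0.04, or 0.05 after centring arrays on their medians). The cystine transporter Slc7a11 read 6.33 and 6.30 (vector), 6.82 and 6.91 (BCR-ABL), and 6.36 and 6.06 (BCR-ABL-Blk). Only its BCR-ABL arrays were high. The difference was 0.55 with BCR-ABL (SE 0.12, adjusted p = 0.183) and −0.66 with added Blk (SE 0.12, adjusted p = 0.999). Prdx1 (0.29) and Srxn1 (0.30), peroxide-handling genes, followed. With added Blk all 12 measured genes of the list lay below 0 (median −0.22), and 8 of 12 did not overlap between groups, where 20.0% of all genes were lower without overlap. None passed, 1 had an unadjusted p under 0.05, and without normalization between arrays 5 lay below 0 and 6 above, where the median of all genes was 0.255.

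Immediate-early genes had a median of 0.27 with BCR-ABL over 13 members, and 0 passed. This median turned to −0.13 when vector replicate 1 was dropped and to −0.12 when BCR-ABL replicate 1 was. Ier3 was at 0.92 (SE 0.17, adjusted p = 0.107), the antiproliferative gene Btg2 at −0.55 (adjusted p = 0.425) and the factor Egr2 at 0.31 (adjusted p = 0.639). Ier3 was lower by value with added Blk (−0.42, adjusted p = 0.999), as Hspb1 was. It was named above as near to Hspb1 in pattern over these same arrays, so this is not a separate finding.

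**Figure D5:**
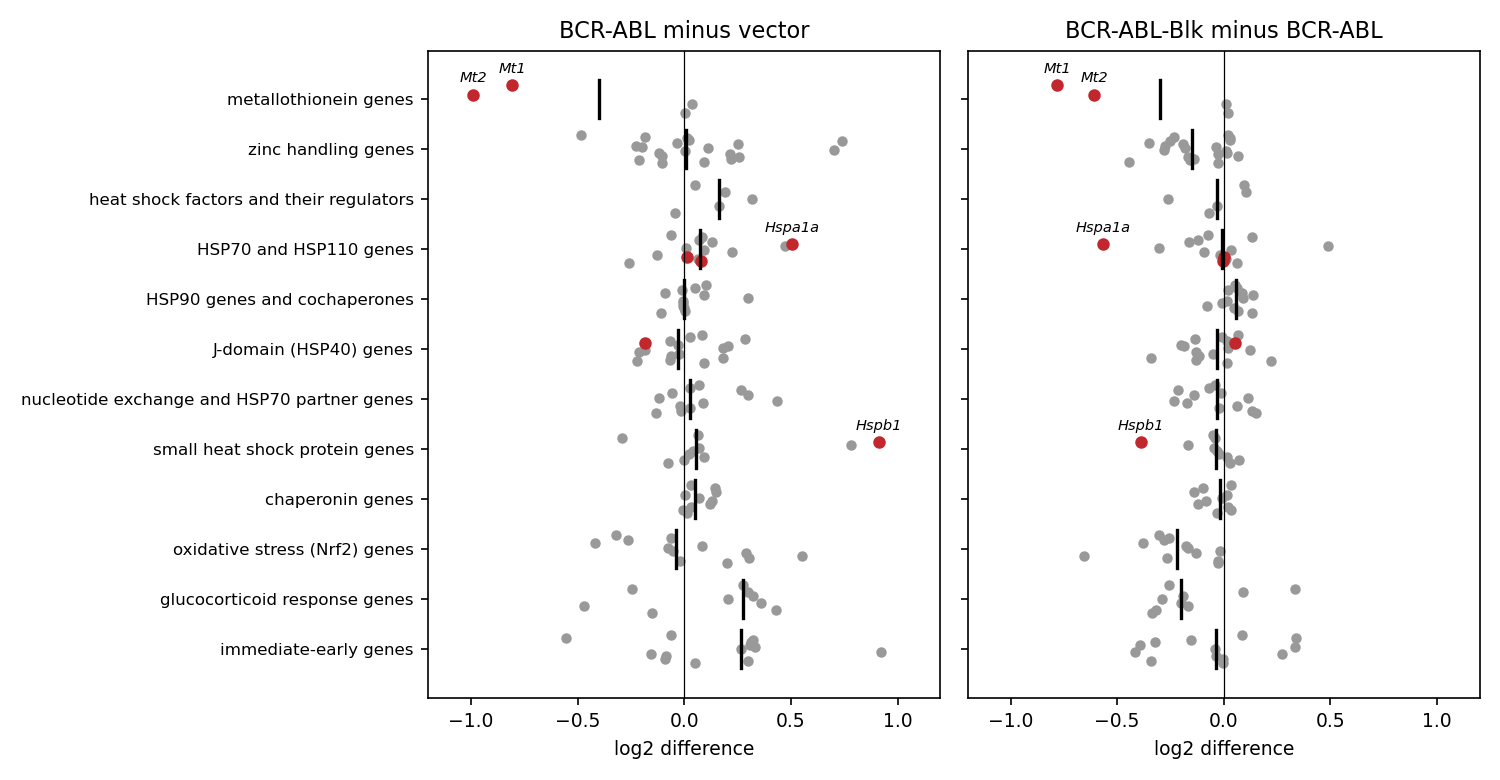
Log2 difference of each measured gene (horizontal axis) in 12 lists of metal and stress genes (vertical axis), for BCR-ABL minus vector and BCR-ABL-Blk minus BCR-ABL; red points are genes of the 7 described here, grey points the others and black bars list medians. Mt1 and Mt2 lie at the far left of both panels' metallothionein row, Hspb1 lies right of 0 with BCR-ABL and left of 0 with added Blk, and most chaperone genes lie near 0.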

How the data were processed

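Expression was measured on 6 Affymetrix whole-transcript arrays. Per the submitters' processing notes, the authors made the deposited log2 values (35557 probe sets) with Affymetrix Expression Console 1.1 and RMA; further settings were not stated in the labels. Array medians differed, so arrays were quantile normalized over all probe sets here, which changes small shifts most. The platform annotation, which can be old, lists 23410 probe sets: 21789 carry a single symbol and 1621 carry more. Probe sets outside it are unnamed here. Per gene the probe set with the highest mean was kept (19938 genes), with no filter on level. A linear model with 3 group means was fitted by limma 3.58.1 under R 4.3.3, using lmFit and eBayes with trend; residual degrees of freedom were 3 and the prior's were 4.40. All p-values are two-sided. The code was tested on simulated data.

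The genes described, the lists, the motifs and the tests were chosen with earlier results of these data known. Named list genes are the 3 with the smallest p between BCR-ABL and vector cells in each list. Mt4, Mtf1, Slc30a1, Hspb6, Hspb8, Hsp90aa1, Fos by array, and the marker genes Kit, Meis1, H2-Ab1 and Gzmb were added after their values were seen. Not every called marker gene is named. Likeness is given for genes whose level ranged over at least 0.5. Alternatives were other scalings, variance models, a filter on level, averaged probe sets, a replicate block, fits on 2 groups and leaving out each array; the list values under other scalings were added after seeing the data. Figures used Python 3.11.15 and matplotlib 3.10.9.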

Additional observations from a re-analysis of the deposited data

How the results depend on the processing

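Mt1, Mt2 and Hspb1 kept their direction in all 3 comparisons under each of the 14 alternatives. Without normalization between arrays the median gene moved by −0.11 (BCR-ABL minus vector), 0.255 (BCR-ABL-Blk minus BCR-ABL) and 0.15 (BCR-ABL-Blk minus vector), and 401, 79 and 732 genes were called in place of 29, 0 and 28. In that setting Mt1 passed in all of these (−0.805, −0.59 and −1.395) and Mt2 passed against vector (−1.035 and −1.40), but no call is read from it. Hspa8 read −0.025 and 0.12 in the first comparisons and Hsph1 read 0.175 with added Blk. Hspa1a (0.135) and Dnajb1 (0.045) turned between BCR-ABL-Blk and vector. With each array centred on its median, Dnajb1 read −0.03 with added Blk and Hspa8 −0.06 between BCR-ABL-Blk and vector. With probe sets averaged, Hspa8 read −0.0096 with BCR-ABL and 0.033 with added Blk. Without an intensity trend 15 genes (BCR-ABL minus vector) and 4 genes (BCR-ABL-Blk minus vector) were called; in the latter comparison array weights gave 14 and a fit on the 2 groups alone gave 4. The cause of these shifts was not tested.

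Same-numbered replicates did not deviate together (r = −0.062, 0.084 and 0.033 for the 3 pairs of groups). With the number as a replicate block, 29, 0 and 23 genes were called, and Mt2 passed between BCR-ABL-Blk and vector (−1.60, adjusted p = 0.0422); no other call of the 7 genes changed.

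Leaving out single arrays gave 1 to 507 calls for BCR-ABL minus vector (507 without vector replicate 1, 214 without vector replicate 2, 1 without either BCR-ABL array), 0 to 2 with added Blk (2 without BCR-ABL-Blk replicate 1) and 4 to 560 for BCR-ABL-Blk minus vector (560 and 227 without vector replicates 1 and 2). For BCR-ABL minus vector the ranges were −1.25 to −0.73 for Mt2, −0.25 to 1.25 for Hspa1a, −0.11 to 0.26 for Hsph1 and −0.0029 to 0.026 for Hspa8. With added Blk they were −1.17 to 0.0375 for Hspa1a, −0.067 to 0.057 for Hsph1, −0.034 to 0.1375 for Dnajb1 and −0.032 to 0.031 for Hspa8. Between BCR-ABL-Blk and vector they were −1.93 to −1.25 for Mt1, −1.85 to −1.34 for Mt2, −0.81 to 0.69 for Hspa1a, −0.115 to 0.26 for Hsph1 and −0.020 to 0.043 for Hspa8. Signal over background was not measured.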
